A study of Mus musculus with 16 samples.

Results

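Nr6a1, an orphan nuclear receptor also called germ cell nuclear factor (GCNF), was followed on 16 Affymetrix Mouse430_2 arrays of adrenal glands from mouse embryos. All probe sets annotated to Nr6a1 and to no other gene were taken, which gave 5 of the 45101 probe sets on the array, for 1 of 18193 genes with a probe set of their own. The gene was chosen by its KO and WT signals on these arrays, for being higher in Dicer knockout (KO) than in wild-type (WT) glands, so its KO and WT values are given as a description, with no test. The tests on Nr6a1 below concern the change between stages and the difference between the stage-specific KO effects. They use the same arrays, and the raised signal of WT E16.5 replicate 1 was known when the gene was chosen. The tests that include this array are thus not independent of the choice.

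The 4 groups were KO at embryonic stage E15.5, WT at E15.5, KO at E16.5 and WT at E16.5, with 4 arrays each, all on a C57BL/6 background. The KO carried Cre driven by Sf1 regulatory sequence together with floxed Dicer alleles, and the parents were Dicerlox/lox mice and mice with Sf1-Cre that were Dicerlox/lox or Dicer+/lox. The animals labelled WT were littermates without Cre, which in such matings can still carry floxed Dicer alleles. Each array held RNA pooled from adrenals of like genotype within a litter, whole glands in which chromaffin, blood and capsule cells lie beside the cortex where Sf1 is active. A lower or higher signal in such a pool cannot be told apart from a smaller or larger share of the cells that make the transcript.

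Nr6a1 binds DNA as a repressor and has no known ligand. It is known for silencing Pou5f1 (Oct4) when pluripotent cells differentiate, where it acts with DNA methyltransferases, and for shaping the trunk of the embryo through Hox genes. Its transcript is a reported target of let-7 and of miR-196, microRNAs that need Dicer to be cut from their hairpin precursors. A microRNA finds its targets mainly through its seed, bases 2 to 8 counted from the 5′ end.

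The mature sequences below are shown because these microRNAs are the reported regulators of Nr6a1 (let-7 and miR-196) or are made from the opposite strand within the Nr6a1 gene (miR-181). They are from RefSeq on build GRCm38.p6, written 5′ to 3′ with the seed in capitals. Their own levels were not measured by these probe sets.
mmu-let-7a-5p (Mirlet7a-1, chr13:48538239-48538260, minus strand): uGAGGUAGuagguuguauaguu
mmu-let-7d-5p (Mirlet7d, chr13:48536078-48536099, minus strand): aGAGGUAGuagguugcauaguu
mmu-let-7i-5p (Mirlet7i, chr10:122985698-122985719, minus strand): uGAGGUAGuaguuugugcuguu
mmu-miR-98-5p (Mir98, chrX:151913229-151913250, plus strand): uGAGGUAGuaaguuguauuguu
mmu-miR-196a-5p (Mir196a-1, chr11:96265187-96265208, plus strand): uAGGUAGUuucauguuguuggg
mmu-miR-196b-5p (Mir196b, chr6:52230129-52230150, minus strand): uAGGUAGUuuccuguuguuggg
mmu-miR-181a-5p (Mir181a-2, chr2:38852741-38852763, plus strand): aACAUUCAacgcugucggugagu
mmu-miR-181b-5p (Mir181b-2, chr2:38853845-38853868, plus strand): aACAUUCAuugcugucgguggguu
The 9 mature let-7 family members in the table, miR-98 among them, shared the seed GAGGUAG. The 2 miR-196 members had the seed AGGUAGU, which has a run of 6 bases, AGGUAG, in common with the let-7 seed, starting at base 3 of let-7 and at base 2 of miR-196. The miR-181 members had the seed ACAUUCA. No Nr6a1 transcript sequence was used here, so sites for these seeds were not looked for.

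The brightest Nr6a1 probe set, 1428825_at, stands for the gene below. At E15.5 it read 9.14, 9.31, 9.23 and 9.17 in KO replicates 1 to 4, and 5.79, 5.73, 5.66 and 5.57 in WT replicates 1 to 4, as log2 signals made by RMA, a method that summarises the probes of a set. All 4 KO arrays lay above all 4 WT arrays, with a gap of more than 3 log2 units between the lowest KO and the highest WT array. The groups averaged 9.21 ± 0.07 in KO and 5.69 ± 0.10 in WT (SD, n = 4 each). The standard error (SE) of Nr6a1 comes from a spread shared by all 4 groups, which WT E16.5 widened (SD 0.99 there). The difference was 3.53 (SE 0.31), which is 11.5-fold on the linear scale. It was the highest rise among the 13644 genes bright enough to be tested. Over all these genes 9.8% had all 4 KO arrays above all 4 WT arrays at E15.5, and 3.69% were called higher in KO by limma at an adjusted p under 0.05. The median KO minus WT difference over all genes tested was 0.07.

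At E16.5 Nr6a1 read 9.22, 8.92, 9.16 and 9.14 in KO replicates 1 to 4, and 7.75, 5.74, 5.87 and 5.71 in WT replicates 1 to 4. The groups again did not overlap, but WT replicate 1 stood between them, about 2 log2 units above the other WT arrays. The groups averaged 9.11 ± 0.13 in KO and 6.27 ± 0.99 in WT (SD, n = 4 each). The difference was 2.84 (SE 0.31), or 7.17-fold. Without WT replicate 1 the WT arrays averaged 5.77 ± 0.09 (SD, n = 3) and the difference was 3.34, or 10.1-fold. Nr6a1 was the second highest rise at E16.5, after the X-inactivation transcript Xist at 4.45 (SE 1.85, limma adjusted p = 0.148), whose signal follows the sex of the pooled embryos. Of all genes tested 10.4% had all 4 KO arrays above all 4 WT arrays at E16.5, and 6.99% were called higher. Over both stages 2.82% had all 8 KO arrays above all 8 WT arrays, as Nr6a1 did.

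**Figure D1:**
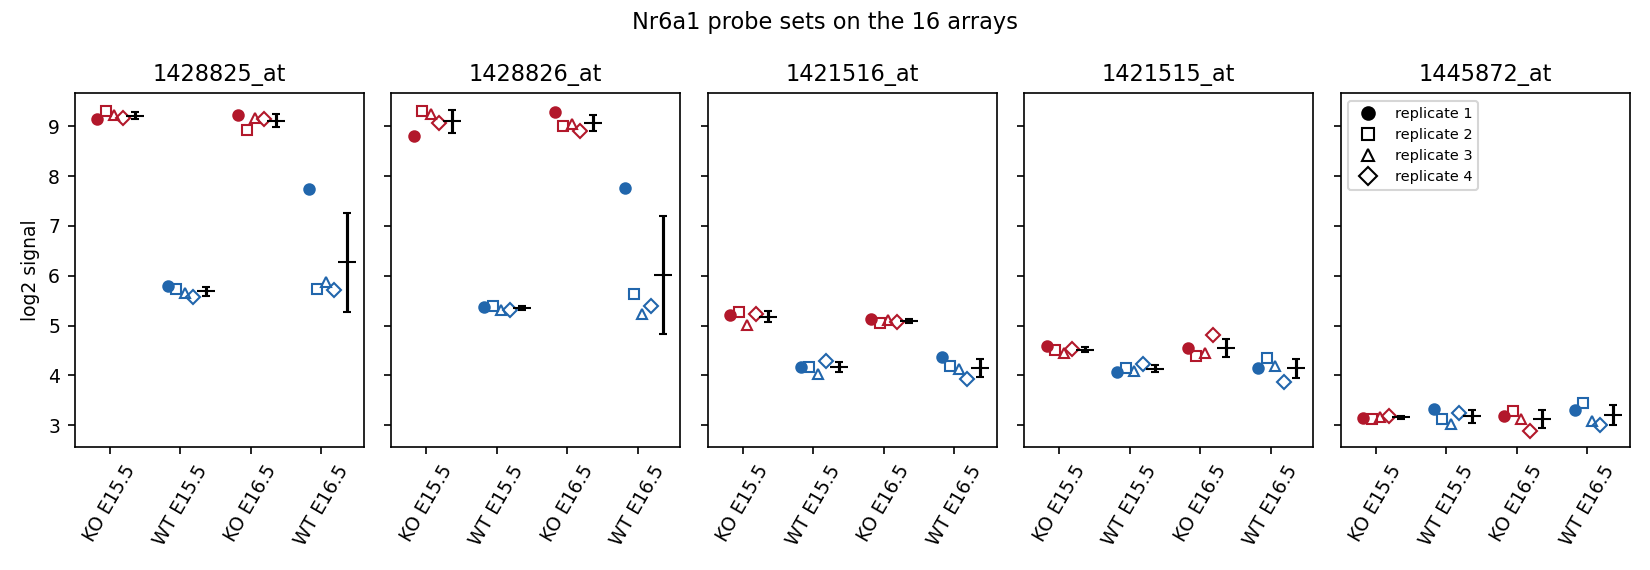
Log2 signal (vertical axis) of the 5 Nr6a1 probe sets on the 16 arrays, in a panel each, with KO left of WT at each stage. Points are arrays, with a symbol for each replicate number and replicate 1 filled, and the black bar is the group mean with its SD. The KO arrays of 1428825_at lie between 8.92 and 9.31, and the WT arrays between 5.57 and 5.87 except WT E16.5 replicate 1 at 7.75.

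A further probe set gave the same pattern and the others gave less of it. Probe set 1428826_at, made from the same source sequence as 1428825_at, read 8.80, 9.31, 9.25 and 9.06 in KO and 5.38, 5.40, 5.32 and 5.31 in WT at E15.5. At E16.5 it read 9.29, 9.0, 9.04 and 8.91 in KO and 7.76, 5.63, 5.24 and 5.40 in WT. The KO minus WT difference was 3.75 (SE 0.38, 13.4-fold) at E15.5 and 3.05 (SE 0.38, 8.29-fold) at E16.5, or 3.64 (12.4-fold) without WT E16.5 replicate 1. The raised WT array was the same on both of these probe sets, 1.97 above the mean of the other 3 on 1428825_at and 2.34 above it on 1428826_at. On the KO arrays the signal of 1428826_at minus that of 1428825_at ranged from -0.35 to 0.08, and on the WT arrays from -0.64 to 0.02.

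The remaining 3 probe sets were dim and did not pass the filter, which asked for a signal above the 40th percentile of the array on at least 4 arrays. Probe set 1421516_at read 5.22, 5.27, 5.01 and 5.24 in KO and 4.18, 4.17, 4.03 and 4.28 in WT at E15.5, then 5.13, 5.05, 5.11 and 5.07 in KO and 4.37, 4.18, 4.13 and 3.93 in WT at E16.5. Its KO arrays lay above its WT arrays at both stages, by 1.02 at E15.5 and 0.94 at E16.5 on average, and WT E16.5 replicate 1 was the highest WT array there too, 0.29 above the other 3. Probe set 1421515_at, from the same source sequence as 1421516_at, differed by 0.39 and 0.41, with group means of 4.52 in KO against 4.13 in WT at E15.5 and 4.55 in KO against 4.14 in WT at E16.5. Probe set 1445872_at sat near the lowest signals of the array, between 2.88 and 3.30 in KO and between 3.01 and 3.44 in WT, and its differences were -0.02 and -0.09. RMA compresses signals near the floor, so the differences of dim probe sets do not measure how far the transcript changed. Where on the transcript each probe set lies was not looked up here.

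In the order of their levels the groups ran KO E15.5 at 9.21, KO E16.5 at 9.11, WT E16.5 at 6.27 and WT E15.5 at 5.69. Within each genotype the stages overlapped. Nr6a1 at E16.5 minus E15.5 was -0.10 (SE 0.31, limma adjusted p = 0.969, 95% confidence interval -0.77 to 0.56) in KO. An exact two-sided permutation test of these arrays gave p = 0.200. In WT the stage difference was 0.58 (SE 0.31, limma adjusted p = 0.717, interval -0.09 to 1.25), with an exact permutation p = 0.171. Without WT E16.5 replicate 1 it was 0.09, with 3 arrays against 4 and an exact permutation p = 0.343. That array was left out for its own Nr6a1 value, so this p is only a description. Nr6a1 thus did not pass at either genotype, while limma called 123 genes between stages in KO (0.901% of those tested) and 13 in WT (0.0953%). The intervals leave room for a change of up to about 0.77 on the log2 scale in KO glands. Their SE is from a spread shared by the 4 groups, which WT E16.5 (SD 0.99) widened far beyond the KO groups (SD 0.07 and 0.13). The intervals thus do not measure the spread of the KO arrays alone.

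The KO effect on Nr6a1 at E16.5 minus that at E15.5 was -0.69 (SE 0.44, 95% confidence interval -1.63 to 0.26, limma adjusted p = 1.000). Without WT E16.5 replicate 1 the difference between the effects was -0.19. No gene passed this test in limma, and 258 of 13644 had an unadjusted p under 0.05, fewer than that threshold would give by chance on average.

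The raised Nr6a1 signal of WT E16.5 replicate 1 was set against the other genes of that array. On the linear scale Nr6a1 lay at 0.320 of the way from the other 3 WT arrays, taken as 0, to the KO mean, taken as 1. On the log2 scale it lay at 0.591. The same position was computed for the 116 other genes that were called at E15.5 and differed at least 2-fold there. Their KO minus WT differences at E16.5 were not used in the choice. The call rested on a spread shared by all groups, so the E16.5 arrays still entered the choice through that spread. A gene with a wide spread at E16.5 was thus less likely to be called, and the effect of this on the medians was not tested. The median position of the 116 genes on WT E16.5 replicate 1 was 0.034 (quartiles -0.119 to 0.216), against medians of 0.0097, -0.029 and -0.033 on WT E16.5 replicates 2, 3 and 4. On the log2 scale their median on replicate 1 was 0.043. Among the 56 of them that rose at E15.5 the median was 0.029, and 3 lay above Nr6a1 on this array: Cdc34 at 0.543, Rac2 at 0.383 and Fcgr1 at 0.367, chosen here after their values were seen. These values are on the linear scale. On the log2 scale Cdc34 at 0.635 lay above Nr6a1, while Fcgr1 at 0.555 and Rac2 at 0.498 lay below it. Cdc34 encodes a ubiquitin-conjugating enzyme, Rac2 a small GTPase of blood cells and Fcgr1 an Fc receptor of macrophages. Of the 56 genes, 12 lay above 0.2 on this array on the linear scale, against 10, 0 and 4 on WT E16.5 replicates 2, 3 and 4. Close below Nr6a1 on replicate 1 were Batf3 at 0.311, Eda2r at 0.310, Clec4n at 0.299, Cited1 at 0.282 and the macrophage marker Aif1 at 0.277, also chosen after their values were seen. Of the other listed macrophage markers among the 56, Tyrobp lay at 0.210 and Csf1r, in the opposite direction, at -0.155. Csf1r was at 0.351 on WT E16.5 replicate 2. The mean signal of 10 macrophage markers was higher on this array than on the other WT arrays, as given with the cell type markers below, and its part in these positions was not tested.

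**Figure D2:**
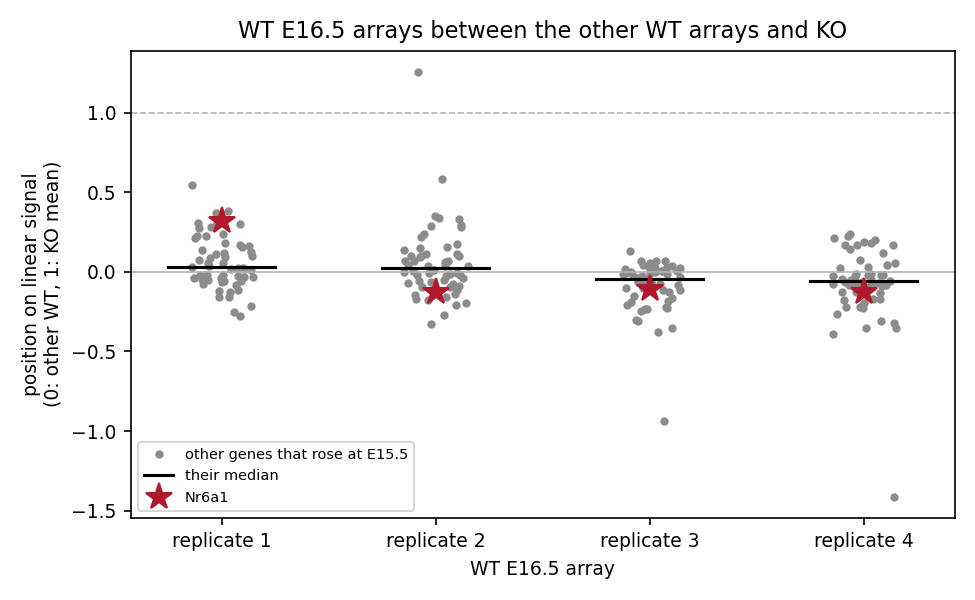
Position of each WT E16.5 array between the mean of the other WT E16.5 arrays (0) and the KO E16.5 mean (1), on the linear signal (vertical axis), for the 56 other genes that rose at least 2-fold at E15.5 (grey points, with their median as a bar) and for Nr6a1 (star). On replicate 1 Nr6a1 is at 0.320 while the median of the other genes is 0.029. On replicates 2 to 4 it lies between -0.127 and -0.108, with replicate 1 then counted among the other WT arrays.

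By the difference between WT E16.5 replicate 1 and the mean of the other 3 WT E16.5 arrays, Nr6a1 ranked 22 of 13644 genes. On this array 116 genes were at least 1 log2 unit above the other 3 and 23 at least 1 below, fewer than on WT E16.5 replicate 2, with 191 above and 517 below. The highest were Xist at 4.13, the embryonic globin Hbb-y at 3.31, and the liver-secreted proteins Serpina1b at 3.12, Ttr at 2.87 and Alb (albumin) at 2.84. The lowest were the zinc finger gene Zfp979 at -2.52, the matrix link protein gene Hapln1 at -1.98, the ubiquitin ligase gene Nedd4 at -1.67, the repressor gene Zeb2 at -1.46 and the pseudogene Tes3-ps at -1.44.

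Because liver, blood and sex genes led that list, their levels were set beside Nr6a1 on every array, with lists chosen after the data were seen. The mean log2 signal of 9 liver genes was 9.44 on WT E16.5 replicate 1 and 6.75 to 7.05 on the other WT E16.5 arrays. It was 9.33 on WT E15.5 replicate 1, where Nr6a1 read 5.79, a WT level. It was highest, at 10.07, on KO E16.5 replicate 2, which had the lowest Nr6a1 signal of the KO arrays, 8.92. Within WT E16.5 the array with the highest liver signal was also the one with the raised Nr6a1 signal. The part of liver tissue in that signal was not tested. The mean of the 3 embryonic globin genes Hbb-y, Hba-x and Hbb-bh1 was 8.84 on WT E16.5 replicate 1 and 6.25 to 6.86 on the other WT E16.5 arrays. In KO at E16.5 it was 8.68 on replicate 1 and 7.45 to 7.78 on the other arrays. On the E15.5 arrays it was 9.71 to 10.62 in KO and 9.56 to 9.97 in WT, and Nr6a1 was at 5.57 to 5.79 on those WT arrays.

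**Figure D3:**
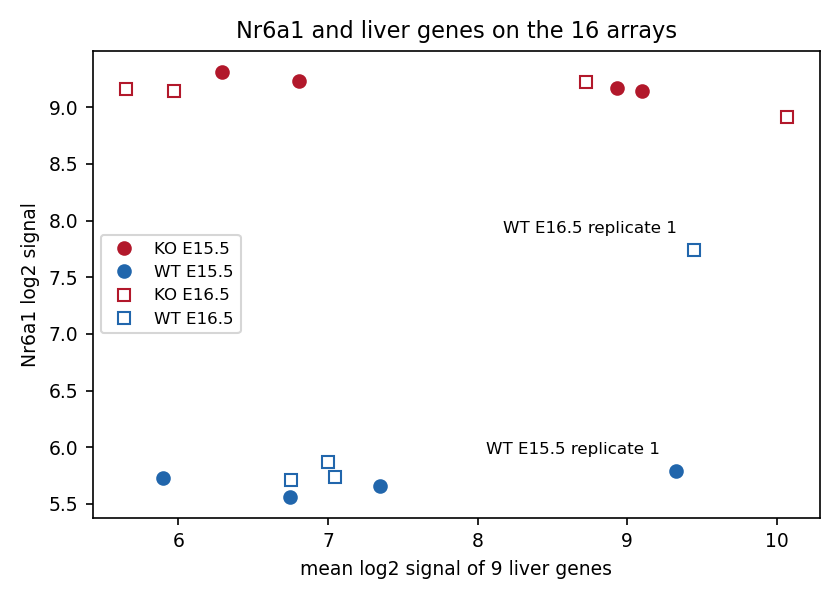
Nr6a1 log2 signal (vertical axis) against the mean log2 signal of 9 liver genes (horizontal axis), with a point for each of the 16 arrays, KO in red and WT in blue, E15.5 as filled circles and E16.5 as open squares. WT E16.5 replicate 1 (9.44, Nr6a1 7.75) has the highest liver signal of the WT E16.5 arrays, and WT E15.5 replicate 1 (9.33, Nr6a1 5.79) that of the WT E15.5 arrays.

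The Xist and Y-linked signals of the pools were set beside Nr6a1 in the same way. Xist read 5.02 on KO E15.5 replicate 2 and 4.85 to 5.17 on WT E15.5 replicates 1 to 3, arrays with Y-linked signal and low Xist, and Nr6a1 read 9.31 on the first and 5.66 to 5.79 on the others. WT E16.5 replicates 3 and 4 were also such arrays, with Xist at 4.82 and 4.62 and Nr6a1 at 5.87 and 5.71. At E16.5 Xist ran from 11.16 to 12.76 in KO and from 4.62 to 10.73 in WT. The sex make-up of the pools thus differed between the genotypes, and its part in the Nr6a1 difference was not tested. Arrays with high Xist and the Y-linked genes Eif2s3y, Kdm5d and Uty near the floor were KO E16.5 replicate 1, with Nr6a1 at 9.22, and WT E15.5 replicate 4, with Nr6a1 at 5.57. WT E16.5 replicate 1 had both kinds of signal, Xist at 10.73 and Eif2s3y at 8.81, as did WT E16.5 replicate 2 with 10.37 and 8.41, where Nr6a1 was 5.74. The part that any difference in dissected tissue had in the raised Nr6a1 signal was not tested.

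Adrenal cortex markers were bright on all 16 arrays. They were not the only tissue signal, since the liver gene Alb ran from 7.14 to 12.41 over the arrays. The mean log2 signal of 8 adrenal cortex genes, among them the steroidogenic genes Star and Cyp11a1, was 11.54 to 12.06 in KO and 11.92 to 12.47 in WT at E15.5, and 11.34 to 11.78 in KO and 11.99 to 12.40 in WT at E16.5. Of these 8, 3 were lower in KO at E15.5 and 5 at E16.5, where 2.18% and 3.55% of all genes tested were called lower. Germ cell markers, which are of interest because Nr6a1 was named for germ cells, had a mean of 4.50 to 4.81 in KO and 4.26 to 4.73 in WT at E15.5, and 4.45 to 4.56 in KO and 4.34 to 4.62 in WT at E16.5, with 1 of 7 above the filter. Macrophage markers moved with genotype: 5 of 10 were higher in KO at E15.5 and 10 of 10 at E16.5, where 3.69% and 6.99% of all genes tested were called higher. Their mean was 8.33 to 8.93 in KO and 7.72 to 8.04 in WT at E15.5, and 9.25 to 9.73 in KO and 8.01 to 8.67 in WT at E16.5. WT E16.5 replicate 1 was the highest WT array, at 8.67, which is within the KO range of E15.5. Of the 6 chromaffin cell markers 0 and 3 were higher, of the 6 markers of gonadal somatic cells 0 and 1, and of the 3 kidney markers tested 1 and 1, at E15.5 and E16.5 in that order, beside the same 3.69% and 6.99%. Between stages, 4 of the 10 macrophage markers were called higher at E16.5 than at E15.5 in KO, as were 0.872% of all genes tested. The part of these cell types in the Nr6a1 difference was not tested.

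Nr6a1 lies on chromosome 2, at chr2:38723369-38926461 on the minus strand of GRCm38.p6, and spans 203093 bases. Its neighbour at a distance of 8827 bases is Nr5a1, which encodes Sf1, the factor whose regulatory sequence drives Cre in the KO. Nr5a1 read 11.02, 11.40, 12.38 and 10.92 in KO and 10.67, 10.39, 10.72 and 11.68 in WT at E15.5, and 11.56, 11.10, 10.87 and 11.22 in KO and 11.66, 10.99, 10.90 and 10.45 in WT at E16.5. The groups overlapped at both stages, with a difference of 0.56 (SE 0.33, limma adjusted p = 0.396) at the earlier stage and 0.19 (SE 0.33, adjusted p = 0.797) at the later.

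Of the 10 protein-coding genes on each side of Nr6a1, 18 had a probe set and 14 were tested, and limma called 0 at either stage, where 5.86% of all genes tested were called at E15.5 and 10.5% at E16.5. Their differences ranged from -0.29 to 0.56. Among the nearest, Olfml2a, an olfactomedin gene 5519 bases away, differed by 0.30 and 0.27, and Psmb7, a proteasome subunit gene, by 0.33 and 0.25 at E15.5 and E16.5. The kinase gene Nek6 differed by -0.08 and -0.29, Wdr38 by -0.10 and 0.02 and the ribosomal protein gene Rpl35 by -0.12 and -0.04. None of these had the size of the Nr6a1 difference. The antisense transcript Nr6a1os and the miR-181 precursors Mir181a-2 and Mir181b-2, which lie within Nr6a1 on the other strand, had no probe set used here.

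**Figure D4:**
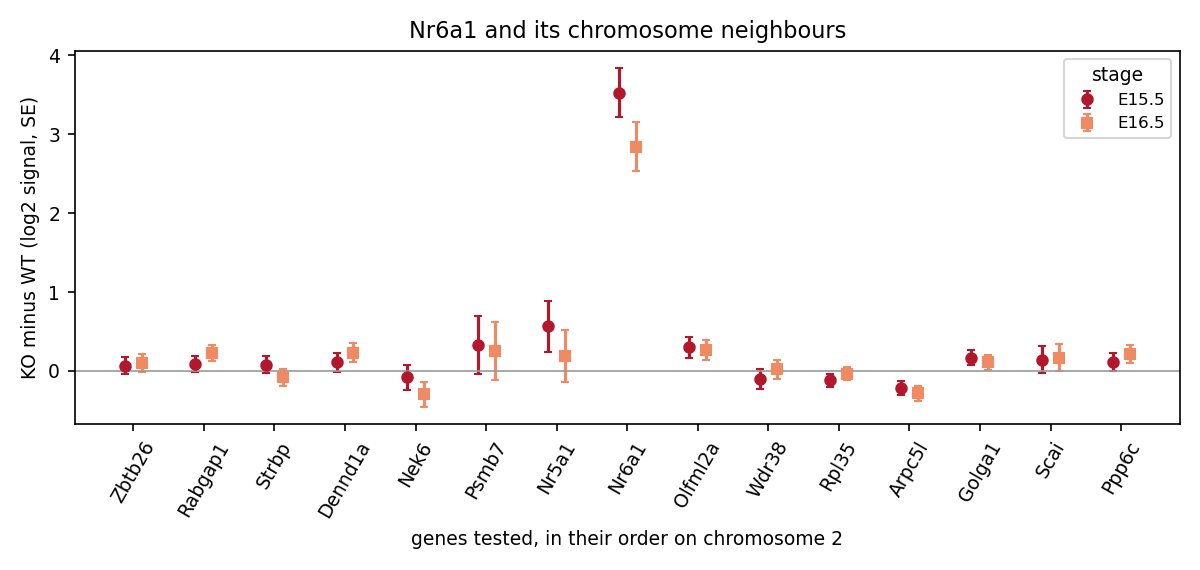
KO minus WT difference in log2 signal with its SE (vertical axis) for Nr6a1 and its 14 tested neighbours in chromosome order, with E15.5 as circles and E16.5 as squares. Nr6a1 is at 3.53 and 2.84, and the neighbours lie between -0.29 and 0.56.

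Of the genes that Nr6a1 is reported to repress or to work with, 0 of 10 tested were called at E15.5 and 1 of 10 at E16.5, near the share over all genes tested. The list held 19 genes, of which 17 had a probe set and 10 were tested. In limma at E15.5, 3 of the 10 had an unadjusted p under 0.05, as did 2593 of all 13644 genes tested. The list's median difference was 0.16, against 0.07 over all genes tested. At E16.5 the gene called was Sox2, and the list's median was 0.13, against 0.08. Over all genes tested 5.86% were called at E15.5 and 10.5% at E16.5. Sox2 is a pluripotency and neural factor, and it read 6.62, 7.21, 7.04 and 6.93 in KO and 6.57, 6.13, 6.57 and 6.54 in WT at E16.5, a difference of 0.50 (limma adjusted p = 0.0431). All 4 KO arrays were above all 4 WT arrays, and the call was kept in 1 of 8 fits that each left out an array of that stage, the one without KO E16.5 replicate 1. After quantile normalization or either centring of the arrays its adjusted p was 0.0936 to 0.120. At E15.5 Sox2 differed by 0.06, and by -0.026 to -0.0048 under those scalings. From E15.5 to E16.5 its mean fell from 7.38 to 6.45 in WT (limma adjusted p = 0.0254). In KO the mean went from 7.44 to 6.95 (limma adjusted p = 0.183), so the E16.5 difference was not a rise over stages in KO.

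Pou5f1, the best known target of Nr6a1, was below the filter at 4.08 to 4.43 in KO and 4.20 to 4.42 in WT at E15.5. Its differences were -0.08 and -0.13. Tdgf1 (Cripto), a Nodal co-receptor, was also below the filter, with means of 4.16 in KO and 3.48 in WT at E15.5 and 4.21 in KO and 3.49 in WT at E16.5. All of its KO arrays were above all of its WT arrays, and the gene was not tested. The protamine gene Prm2, which packs sperm DNA, averaged 4.21 in KO and 4.69 in WT at E15.5 and 4.38 in KO and 4.73 in WT at E16.5, below the filter as well. Its relative Prm1 was tested and differed by -0.27 (limma adjusted p = 0.0912) and -0.11 (adjusted p = 0.519). The methyltransferase gene Dnmt3b, a reported partner, differed by 0.18 (adjusted p = 0.542) and 0.21 (adjusted p = 0.386).

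The DNA element TCAAGGTCA, which both Nr6a1 and Nr5a1 can bind, was searched on both strands of windows from 250 bases before to 50 bases after annotated gene starts. It was present in 0.423% of 32851 windows, and 0.466% of 27025 genes had it in a window. Of 15 listed targets and partners with a window, 1 held it, Prm2, at positions -214 to -206 relative to the start. Neither window of Nr6a1 held it.

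Among the nuclear receptor genes tested Nr6a1 had the largest difference at both stages. Of 49 family members on the list 44 had a probe set, and 36 besides Nr6a1 were tested. In KO 2 were higher and 4 lower at E15.5, where 3.69% of all genes tested were called higher and 2.18% lower. At E16.5 4 were higher and 6 lower, where 6.99% of all genes tested were called higher and 3.55% lower. The list's median differences were 0.07 and 0.10 without Nr6a1. The steepest fall was that of Nr0b1 (Dax1), a repressor of Sf1-driven transcription, which read 6.40, 6.28, 6.65 and 6.90 in KO and 7.78, 8.07, 7.62 and 8.11 in WT at E15.5. It fell by 1.34 (SE 0.24, limma adjusted p = 0.00238) at the earlier stage and by 1.19 (SE 0.24, adjusted p = 0.00409) at the later. The groups of Nr0b1 did not overlap at either stage.

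The vitamin D receptor gene Vdr rose by 0.69 (limma adjusted p = 0.00488) and 0.75 (adjusted p = 0.0019), and Nr1d1 (Rev-erb alpha), a clock repressor, by 0.71 (adjusted p = 0.0029) and 0.68 (adjusted p = 0.00277). Its relative Nr1d2 rose by 0.59 (adjusted p = 0.0149) at E16.5, after 0.49 (adjusted p = 0.0598) at E15.5. Nr4a3, an immediate early gene, fell by 0.80 at E15.5 (adjusted p = 0.00566), and at E16.5 it was at -0.46 (adjusted p = 0.0809). Ppara, a regulator of fatty acid oxidation, fell by 0.56 (adjusted p = 0.016) and 0.66 (adjusted p = 0.0037). Rora fell by 0.93 (adjusted p = 0.021) and Nr0b2 (Shp), a bile acid-induced repressor, by 0.70 (adjusted p = 0.0356), both at E16.5. The Nr0b2 call at E16.5 was kept in 3 of 8 fits with an array left out, the Rora call in 6 of 8 (lost without KO replicate 2 or WT replicate 4), the Ppara call at E15.5 in 6 of 8 (lost without KO replicate 4 or WT replicate 4) and the Nr1d2 call in 7 of 8 (lost without KO replicate 3).

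**Figure D5:**
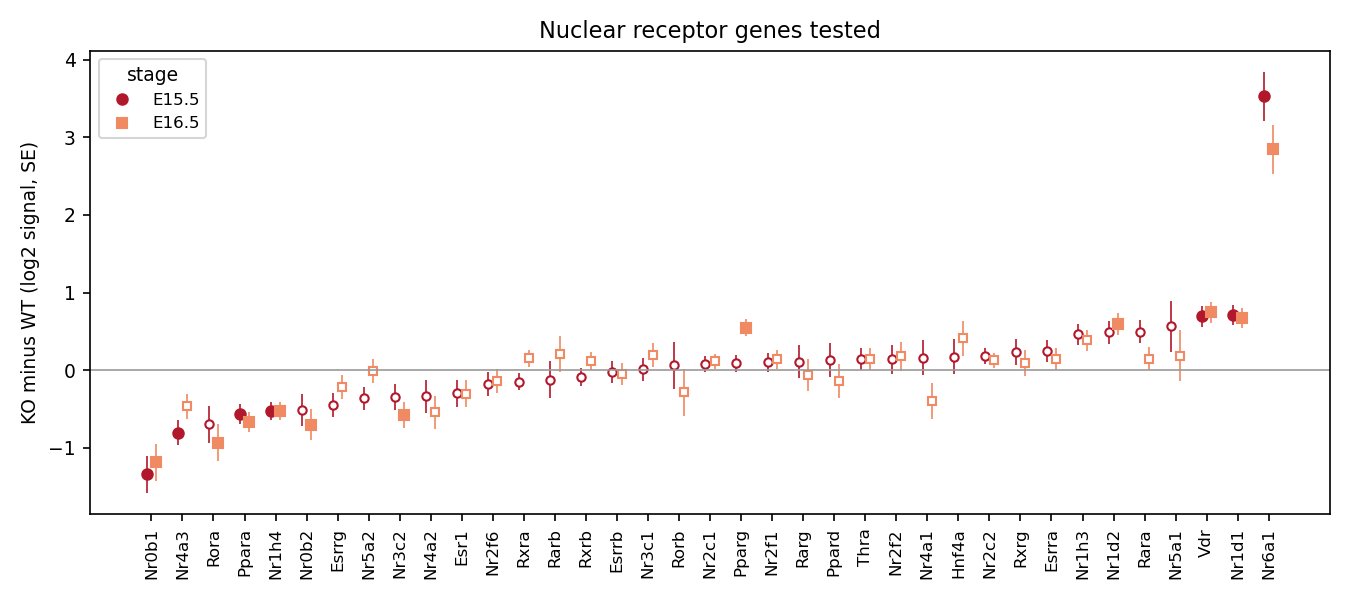
KO minus WT difference in log2 signal with its SE (vertical axis) for the 37 nuclear receptor genes tested, ordered by the E15.5 difference, with E15.5 as circles and E16.5 as squares. Filled symbols mark an adjusted p under 0.05, and Nr6a1, which was not tested here, is also filled. Nr6a1 is at 3.53 and 2.84, Nr0b1 at -1.34 and -1.19, and Vdr and Nr1d1 between 0.68 and 0.75.

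Nr6a1 is a reported let-7 target, and the other members of a list of 30 such targets were set beside it. Of the 23 tested besides Nr6a1, 8 were higher and 1 lower in KO at E15.5, and 9 higher and 1 lower at E16.5. Over all genes tested 3.69% were called higher and 2.18% lower at E15.5, and 6.99% higher and 3.55% lower at E16.5. The list's median difference was 0.38 at E15.5 and 0.26 at E16.5, against 0.07 and 0.08 over all genes tested. The list was assembled with results of these arrays known, so its direction is not independent evidence. The nearest to Nr6a1 in size was Igdcc3, an immunoglobulin superfamily gene, which read 9.05, 8.94, 9.41 and 9.10 in KO and 6.93, 6.70, 6.83 and 6.77 in WT at E15.5, and 9.37, 8.89, 9.19 and 9.08 in KO and 6.73, 7.25, 6.74 and 6.38 in WT at E16.5. Its groups did not overlap, and on WT E16.5 replicate 1 it was not raised as Nr6a1 was. It rose by 2.32 (SE 0.16, limma adjusted p = 3.86e-07) and 2.36 (SE 0.16, adjusted p = 3.36e-07).

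Acvr1c, the activin-type receptor Alk7, rose by 1.95 (limma adjusted p = 5.46e-05) and 1.78 (adjusted p = 6.98e-05), and on WT E16.5 replicate 1 it read 7.43, while WT E16.5 replicate 2 was the highest WT array at 8.71. The DNA-binding protein gene Arid3b rose by 1.52 (adjusted p = 7.22e-06) and 1.18 (adjusted p = 4.16e-05), and the chromatin protein gene Hmga2 by 0.81 (adjusted p = 0.00113) and 1.19 (adjusted p = 1.94e-05). On WT E16.5 replicate 1 Arid3b read 5.23, where the other WT E16.5 arrays read 4.86 to 5.24. Hmga2 read 8.88 there, below the 9.09 to 9.40 of the other WT E16.5 arrays. Cdc34 rose by 1.14 (adjusted p = 0.00176) and 0.93 (adjusted p = 0.00584) and read 9.47 on WT E16.5 replicate 1, against 8.65 to 8.90 on the other WT E16.5 arrays. Of these 5 targets only Cdc34 was thus raised on that array together with Nr6a1.

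The zinc finger gene Plagl2 rose by 0.74 (adjusted p = 0.0102) and 1.09 (adjusted p = 0.00031), the RNA-binding protein gene Igf2bp3 by 0.43 (adjusted p = 0.00509) and 0.51 (adjusted p = 0.000919), and the phosphatase gene Cdc25a by 0.40 (adjusted p = 0.0098) at E16.5, with 0.31 (adjusted p = 0.057) at E15.5. The let-7 antagonists Lin28a and Lin28b, also on the list, were below the filter. Over both stages Lin28a read 3.26 to 3.48 in KO and 3.68 to 3.87 in WT, and Lin28b read 2.90 to 3.25 in KO and 2.68 to 3.01 in WT. Dicer1 itself, also on the list, was at -0.35 (SE 0.11, adjusted p = 0.0638) at the earlier stage, and at E16.5 it fell by 0.36 (SE 0.11, adjusted p = 0.0414), a call kept in 2 of 8 fits with an array left out. At E15.5 Dicer1 passed after quantile normalization (-0.43, adjusted p = 0.0498) and after centring on the dimmest probe sets (-0.44, adjusted p = 0.0166). Its probe set was not placed relative to the floxed part of the gene, so it gives no check of the deletion.

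Nr6a1 is known to act on Hox genes in the trunk, and 14 of 34 axial patterning genes were tested. In each stage 1 of the 14 was higher and 0 lower, with medians of 0.17 and 0.23. These counts were near the share called higher over all genes tested, 3.69% at E15.5 and 6.99% at E16.5. At E15.5 Hoxb6 rose by 0.58 (limma adjusted p = 0.0343), and at E16.5 it was at 0.29 (adjusted p = 0.271). At E16.5 Acvr2b, a receptor for Gdf11, rose by 0.39 (adjusted p = 0.0193), and at E15.5 it was at 0.22 (adjusted p = 0.228). The Hoxb6 call was kept in 3 of 8 fits with an array left out and the Acvr2b call in 6 of 8 (lost without KO replicate 1 or KO replicate 2), and neither passed after quantile normalization or after either centring of the arrays.

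Genes were also ranked by Pearson's r of their log2 signal with that of Nr6a1 over the 16 arrays. This r is a description in which the KO and WT levels carry most of the likeness, and the arrays share the same pools and normalization. The highest were Slc51a, an organic solute transporter gene (r = 0.972), Rac2 (0.972), Rasgef1b, a Ras guanine nucleotide exchange factor gene (0.961), Pgm5, a phosphoglucomutase-like gene (0.954), and Tmppe (0.952). Within the 8 WT arrays their r was 0.667, 0.851, 0.654, 0.823 and 0.0533, and within the 8 KO arrays 0.316, 0.106, 0.560, -0.260 and 0.544, in that order. The lowest were the prostaglandin receptor gene Ptger4 (-0.949), the hydroxyacid oxidase gene Hao2 (-0.946), the kinase gene Sgk2 (-0.940), the connexin 43 gene Gja1 (-0.939) and the endosomal gene Rabep1 (-0.939).

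Over the 8 WT arrays alone, where WT E16.5 replicate 1 sets the range, the genes most like Nr6a1 were Atcay (r = 0.976), Wfdc1 (0.975), Pnoc, which encodes nociceptin precursor (0.964), Rtl5 (0.957) and the chemokine gene Ccl2 (0.956). Over the 8 KO arrays their r was between -0.977 and -0.483. Ccl2 read 5.12 on WT E16.5 replicate 1 against 4.55 to 4.57 on the other WT E16.5 arrays, and Pnoc read 6.31 against 5.33 to 5.50. Of these 5 genes, Ccl2 was higher in KO at both stages, by 0.58 (limma adjusted p = 0.0314) and 0.63 (adjusted p = 0.0142), and the other 4 did not pass at either stage.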

How the data were processed

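The authors deposited log2 signals of 45101 probe sets, and RMA and limma are the tools named, per the submitters' processing notes. Their versions, and whether all 16 arrays were normalized together, are not given in the sources used here. The deposited log2 values were used as they are. Of the probe sets other than 64 controls, 34945 had 1 gene symbol, 932 several and 9160 none, and 34741 symbols were updated through the gene identifier. The probe set with the highest mean stood for a gene, and 13644 of 18193 genes passed the filter (at least 4 arrays with a signal over their own 40th percentile). Limma 3.58.1 in R 4.3.3 with the data.table package (1.17.8) fitted a mean per group to all 16 arrays, with eBayes and Benjamini-Hochberg adjustment over all genes tested, at 0.05, two-sided. Adjusted p-values are from that fit unless a scaling is named.

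Precision was limited by the number of arrays, with a median SE of 0.139 for KO effects. The 4 arrays of a group were pools from separate litters, and arrays within a group correlated at 0.975 to 0.996 over probe sets. The mean signal was 6.35 to 6.37 on KO and 6.31 to 6.32 on WT arrays. The fit was tested on simulated data. Nr6a1 and all lists were chosen with earlier results of these data known. The genes named were the list members that passed (the 8 with the largest change where more passed, otherwise the 2 with the largest change), the nearest 3 neighbours on each side, and the 5 at each end of each ranking. Further members named (Pou5f1, Tdgf1, Prm1, Prm2, Dnmt3b, Lin28a, Lin28b) were chosen after their values were seen. Alternatives changed the filter, the scaling, array weights, the replicate block, the probe set and the arrays left out.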

Additional observations from a re-analysis of the deposited data

Results flagged for a closer look

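A value was marked when, in a group of 4 arrays, the gap of the highest or lowest array to its nearest neighbour was, as a share of the whole range, above Dixon's 95% critical value. Of 224 groups looked at 15 were marked. Chance marks about 1 in 20 groups of 4 not chosen by their values, a rate that does not apply here, since Nr6a1 was chosen with its raised WT array known and several other genes were chosen for their signal on that array or their likeness to Nr6a1 over the WT arrays. WT E16.5 replicate 1 was marked for Nr6a1 on 1428825_at (7.75, against 5.71 to 5.87 on the other arrays) and on 1428826_at (7.76, against 5.24 to 5.63). On the same array Ccl2 (5.12), Pnoc (6.31), Atcay (6.83), Serpina1b (8.64) and Alb (11.86) were marked as high and Zeb2 (8.62) as low. These 6 genes were picked by that array or by that likeness, so the marks follow from the choice. Atcay was also marked on WT E15.5 replicate 1 at 6.39, and Ccl2 on KO E16.5 replicate 2 at 5.82, both as high. Sox2 was low on WT E16.5 replicate 2 at 6.13, against 6.54 to 6.57 on the other arrays. Rora was low on KO E16.5 replicate 2 at 8.20, Gja1 was high on KO E15.5 replicate 1 at 11.79, and Xist was low on KO E15.5 replicate 2 at 5.02 and high on WT E15.5 replicate 4 at 12.06. Of the results tested, no KO effect differed between stages after adjustment.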

How the results depend on the processing

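Nr6a1 was chosen for being higher in KO, so its direction under the alternatives is a description. It was higher in KO at both stages under every scaling, weighting and left-out array tried with 1428825_at. The filters could not change its differences, since Nr6a1 was kept in each fit, and neither could the replicate block. With an array left out the difference was 3.49 to 3.56 at E15.5 and 2.66 to 3.34 at E16.5, the stage difference -0.14 to -0.04 in KO and 0.09 to 0.77 in WT, and the difference between KO effects -0.87 to -0.19. Centring on the dimmest probe sets gave 3.44 at E15.5. The other probe sets gave 3.75 at E15.5 (1428826_at), 1.02 and 0.94 (1421516_at), 0.39 and 0.41 (1421515_at) and, with the sign turned, -0.024 and -0.085 (1445872_at). The sign also turned for the stage difference in KO (0.028) and the difference between KO effects (0.020) on 1421515_at, and for the stage difference in WT (-0.013) on 1421516_at. The median position of WT E16.5 replicate 1 was -0.030 over genes that differed at least 3-fold.

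The counts of calls depended on the processing. With an array left out, 588 to 1047 genes were called at E15.5 and 931 to 1693 at E16.5, and the lists, without Nr6a1, had 0 to 1 and 0 to 1 (targets and partners), 5 to 10 and 7 to 11 (nuclear receptors), 7 to 12 and 8 to 11 (let-7 targets) and 0 to 1 and 0 to 4 (axial genes). The highest counts of genes called at both stages came without WT E16.5 replicate 2, the lowest without KO E15.5 replicate 4 or WT E15.5 replicate 2 (588 each) at E15.5 and without KO E16.5 replicate 3 (931) at E16.5. Without a filter 1688 and 2355 genes were called, with 3 and 3 targets and partners, 10 nuclear receptors at E15.5, and 4 and 4 axial genes. The stricter filter called 414 and 899, with 3 and 5 nuclear receptors and 0 targets and partners at E16.5. Array weights called 1350 and 4938, with 1 and 3 targets and partners, 10 and 18 nuclear receptors, 14 let-7 targets at E15.5, and 9 axial genes at E16.5. Quantile normalization, and centring on the 75th percentile or on the dimmest probe sets, called 0 axial genes at both stages and 0 targets and partners at E16.5, and the last of these called 1 target or partner at E15.5. The cause of these shifts was not tested. The higher and lower calls as deposited were 503 and 297 at E15.5 and 954 and 485 at E16.5, against 373 and 350, and 606 and 571 (quantile), 276 and 372, and 447 and 609 (75th percentile), and 310 and 515, and 595 and 643 (dimmest probe sets).

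Correlation did not show that equal replicate numbers pair the arrays: deviations of same-numbered KO and WT arrays correlated at -0.392 to 0.390 at E15.5 and -0.198 to 0.446 at E16.5. Zfp979 was lowest in both genotypes on E15.5 replicate 3 (KO 5.28, WT 4.93) and on E16.5 replicate 1 (KO 4.74, WT 4.42). Hbb-y was highest in both on E16.5 replicate 1 (KO 11.91, WT 11.93), but at E15.5 on KO replicate 1 and WT replicate 2. Whether equal numbers mark a litter was not tested. The fit with stage and replicate number as a replicate block gave Nr6a1 differences of 3.53 and 2.84, called 710 and 1263 genes, and called 0 targets and partners at E16.5.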
